A study of Mus musculus with 22 samples.

Results

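Immediate early response genes were followed as a named set of 38 genes across muscle stem cells of uninjured and injured mouse muscle. The set was given by gene name, and each gene's level was the sum of the estimated counts of its transcripts. All 38 were found among the 43430 genes of the files, and all 38 passed the filter on low counts that left 15084 genes for testing. Cells came from hindlimb muscle of Pax7-zsgreen mice, in which cells expressing Pax7, a transcription factor and the usual marker of these stem cells, carry a green fluorescent protein by which they were sorted. The 6 groups were uninjured muscle at ZT16 (3 libraries) and ZT4 (3 libraries), day 1 after cardiotoxin injury at ZT16 (4) and ZT4 (4), and day 3 after injury at ZT16 (4) and ZT4 (4). Cardiotoxin is a snake toxin that destroys muscle fibres and starts their regeneration, and ZT is zeitgeber time in hours after lights on. The labels tie ZT to the injury and leave the hour of collection unstated. The uninjured libraries had no injury, so ZT may mark another kind of hour in them. All groups share the reporter genotype and a light fixation by perfusion with paraformaldehyde before the muscle was taken apart, and no label says whether replicates are separate mice, so p-values measure only the spread between these libraries.

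Immediate early genes are transcribed within minutes of a stimulus, without new protein synthesis, because the factors that drive them (SRF with its ELK partners, and CREB) are already present and are switched on by kinases. Many of them encode transcription factors such as FOS, JUN and EGR1, and others encode the proteins that shut the response off again, by dephosphorylating kinases, degrading short-lived mRNA or blocking cytokine receptors. In muscle stem cells the family is known for its early induction after injury and for a rapid response to taking muscle apart, which fixing the tissue beforehand is used to limit.

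The promoters of 5 members are shown because they carry the binding letters of those drivers close to the transcription start. RefSeq windows on GRCm38.p6 were found for 31 of the 38 members, and each line holds the 250 bases before the RefSeq start, written 5′ to 3′ on the gene's strand. Capitals mark TGACGTCA (the cAMP response element bound by CREB and ATF proteins), its shorter form TGACG, the TATA box TATAAA, the EGR motif GCGNGGGCG or the CArG box bound by SRF, wherever they stood on either strand (TATAAA on the gene's strand only).
Fos, chr12:85473640-85473889, plus strand: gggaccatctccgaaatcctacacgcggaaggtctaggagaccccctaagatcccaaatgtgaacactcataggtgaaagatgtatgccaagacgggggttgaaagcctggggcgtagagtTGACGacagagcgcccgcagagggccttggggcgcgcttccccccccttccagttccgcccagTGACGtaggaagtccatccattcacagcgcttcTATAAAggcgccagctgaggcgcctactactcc
Btg2, chr1:134079156-134079405, minus strand: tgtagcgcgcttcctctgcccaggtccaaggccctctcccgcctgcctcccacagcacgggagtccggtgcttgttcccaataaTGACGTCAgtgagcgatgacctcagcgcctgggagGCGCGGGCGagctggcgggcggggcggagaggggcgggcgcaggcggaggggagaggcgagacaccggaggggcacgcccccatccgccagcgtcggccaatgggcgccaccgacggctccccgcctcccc
Ppp1r15a, chr7:45526269-45526518, minus strand: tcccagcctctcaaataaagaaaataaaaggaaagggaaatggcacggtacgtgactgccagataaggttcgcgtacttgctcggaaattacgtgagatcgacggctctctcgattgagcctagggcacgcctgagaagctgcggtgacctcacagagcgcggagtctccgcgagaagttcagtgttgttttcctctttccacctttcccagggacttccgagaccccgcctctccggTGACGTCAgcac
Zfp36, chr7:28379229-28379478, minus strand: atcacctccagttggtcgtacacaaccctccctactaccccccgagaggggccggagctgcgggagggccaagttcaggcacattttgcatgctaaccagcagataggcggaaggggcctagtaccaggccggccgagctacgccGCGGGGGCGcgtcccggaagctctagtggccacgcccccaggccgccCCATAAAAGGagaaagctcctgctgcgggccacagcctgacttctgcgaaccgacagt
Dusp5, chr19:53528895-53529144, plus strand: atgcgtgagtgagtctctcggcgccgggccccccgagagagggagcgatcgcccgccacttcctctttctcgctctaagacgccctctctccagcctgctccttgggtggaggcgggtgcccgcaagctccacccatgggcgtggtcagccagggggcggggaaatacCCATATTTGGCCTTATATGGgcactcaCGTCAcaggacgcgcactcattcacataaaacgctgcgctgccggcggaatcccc

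In these windows, searched on both strands except for the TATA box, TGACGTCA stood in 4 of 31 members (12.9%), against 1.77% of 27025 windows of all genes. The members were Btg2, Dusp1, Maff and Ppp1r15a. The shorter TGACG, which TGACGTCA contains, stood in 17 members (54.8%) against 19.8% of all windows, and GCGNGGGCG in 12 (38.7%) against 5.33%. A CArG box stood in Dusp5, Egr2 and Zfp36 (9.68% against 1.62%), and Dusp5 held 2 of them side by side. The E-box CACGTG stood in 8 members (25.8% against 6.86%), the AP-1 motif TGANTCA in Csrnp1 (3.23% against 7.82%) and TATAAA in 4 members (12.9% against 8.94%). These are letter matches, with no test of binding.

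Library totals ranged from 5965957 to 9751536 estimated counts, and levels are given as CPM, the count scaled to library size with TMM factors. Several libraries stood apart for these genes. Uninjured ZT16 replicates 1 and 3 had 9.08% and 7.84% of their counts in the 38 genes, and uninjured ZT16 replicate 2 had 0.673%, against 0.334% to 0.724% in the 3 uninjured ZT4 libraries. At day 1 the share was 2.2%, 1.84%, 1.72% and, in replicate 4, 0.529% at ZT16, against 1.63% to 2.05% at ZT4. At day 3 it was 0.361% to 0.666% at ZT16 and 0.565% to 0.675% at ZT4. The summed level of 8 muscle stem cell markers (Pax7, Myf5, Cd34, Vcam1, Itga7, Sdc4, Chrdl2 and Calcr) was 4422.0 to 5579.8 CPM in uninjured ZT16 and 4311.2 to 4653.3 CPM in uninjured ZT4 libraries, with none of the markers at 0, so the labelled cell type was present. Each CPM depends on how much other RNA its library held, and in bulk libraries fewer cells of a type and less RNA per cell cannot be told apart. Strand-specific counting is not stated in the sources used here, so reads of Fosl1, Jun, Junb, Jund, Atf3, Csrnp1, Zfp36, Dusp1, Dusp5, Gadd45a and Ppp1r15a cannot be told apart from those of annotated genes that overlap them.

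**Figure D1:**
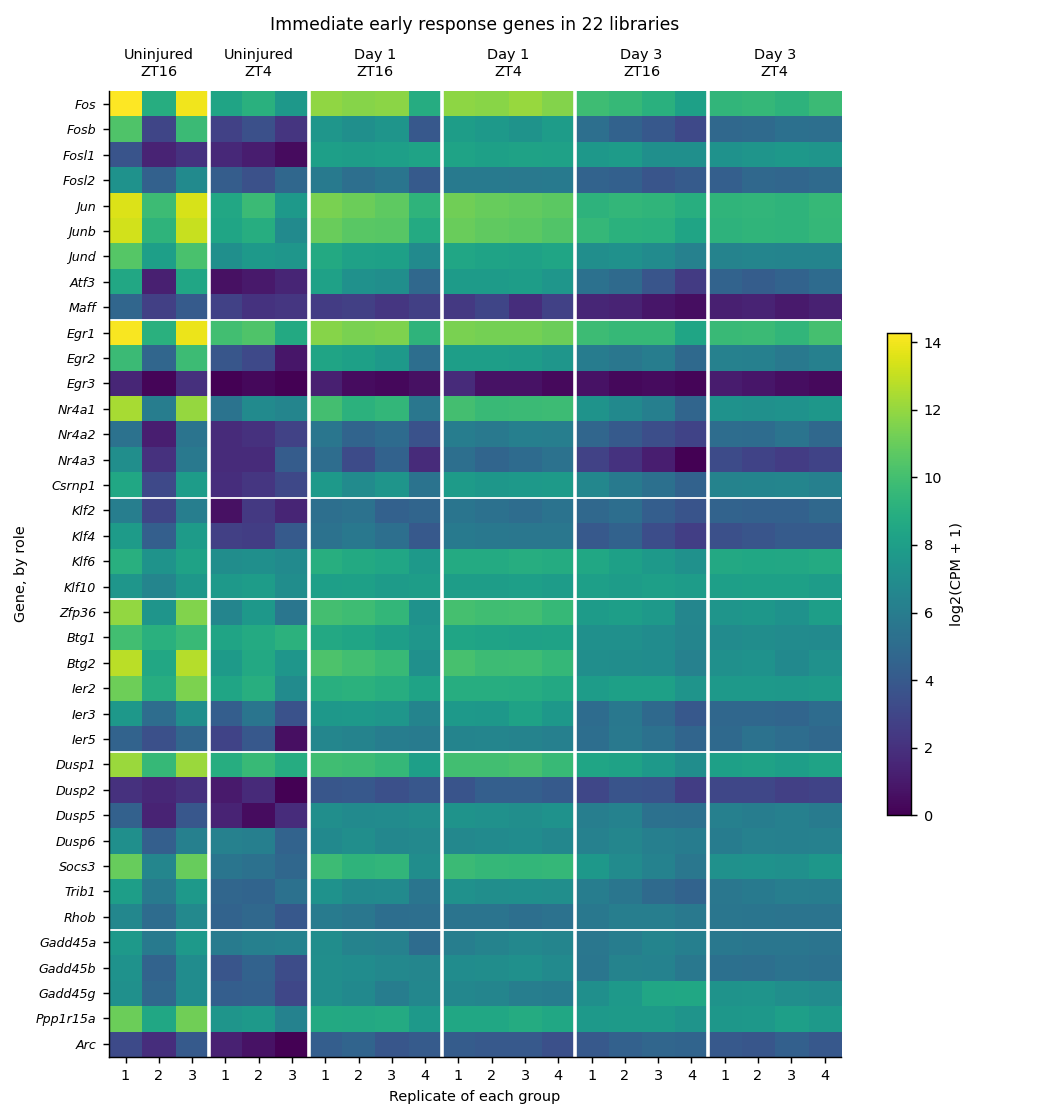
Level of each of the 38 genes (rows, grouped by role) in each of the 22 libraries (columns, grouped by state and time), as log2(CPM + 1) on a colour scale. Uninjured ZT16 replicates 1 and 3 are bright in most rows and replicate 2 is not, and day 1 ZT16 replicate 4 is darker than the 7 other day 1 libraries in most rows.

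The genes spanned several orders of magnitude. Compared per length as TPM, Fos led the set in uninjured ZT16, with a mean of 9592.4 ± 8045.2 TPM (SD, n = 3). It was followed there by Junb, at 5662.2 ± 4450.8 TPM, and Egr1, at 5540.8 ± 4617.1 TPM, with SDs that overlap. These SDs are between libraries that all genes share, so they do not tell whether genes differ within a library. In uninjured ZT4 the first places were held by Dusp1, at 429.5 ± 139.4 TPM, and Egr1, at 416.3 ± 224.2 TPM (SD, n = 3), whose SDs overlap as well. Fos was the highest of the set by mean in the 4 injured groups, with 2053.2 ± 1172.3 TPM at day 1 ZT16 and 2636.6 ± 309.2 TPM at day 1 ZT4, and with 417.8 ± 194.9 TPM at day 3 ZT16 and 515.9 ± 84.8 TPM at day 3 ZT4 (SD, n = 4 each). At day 3 the lead over Junb lay within the SD between libraries, since Junb had 399.6 ± 133.1 TPM at ZT16 and 515.0 ± 42.41 TPM at ZT4. Egr3, a zinc finger factor of the EGR family, was last in each group, and its counts were 0 in uninjured ZT4 replicates 1 and 3, which allows up to 0.338 and 0.48 CPM (3 counts, counting error only).

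Uninjured muscle was first compared between ZT16 and ZT4. Of the 38 members, 32 were higher at ZT16, none lower and 6 did not pass (edgeR's quasi-likelihood test, Benjamini-Hochberg adjusted p under 0.05), against 17.7% of all genes called, 8.53% higher and 9.12% lower. The median log2 fold change was 2.99 over the members and 0.0 over all genes tested. As the members were chosen with earlier results of these data known, the shares over all genes give a scale and no test of the set. The rise was carried by replicates 1 and 3. Replicate 2 was the lowest of the 3 ZT16 libraries for all 38 members, against 32.8% of all genes. Without replicates 1 and 3 no member was higher and 1 was lower, Klf10 at −1.06 ± 0.22 (edgeR adjusted p = 0.00962), and ZT16 then had 1 library, assumed to vary like the other groups. In a fit of the 6 uninjured libraries alone, no member passed in edgeR, although 577 of 13472 genes did. DESeq2 called 35 members and limma voom 17, all higher. The 17.7% of all genes belongs to the edgeR fit of all libraries, and no such share is given for these fits.

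Against the mean of the ZT4 libraries on the scale of log2(CPM + 1), 37 members were at least 2-fold higher in ZT16 replicate 1, where 8.31% of all genes were. In replicate 3 the count was 35 (5.83% of all genes) and in replicate 2 it was 9 (4.13%). The 9 were Arc, Egr2, Ier5, Jun, Junb, Klf2, Klf4, Ppp1r15a and Socs3, and each of them was also 2-fold higher in replicates 1 and 3. The median difference of the members was 3.21 in replicate 1, 0.58 in replicate 2 and 3.13 in replicate 3. For 15 members every ZT16 library exceeded every ZT4 library, against 12.4% of all genes, and for none was every ZT16 library below (12.9% of all genes). These were Jun, Junb, Jund, Egr2, Csrnp1, Klf2, Klf4, Klf6, Socs3, Trib1, Rhob, Gadd45b, Gadd45g, Ppp1r15a and Arc.

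**Figure D2:**
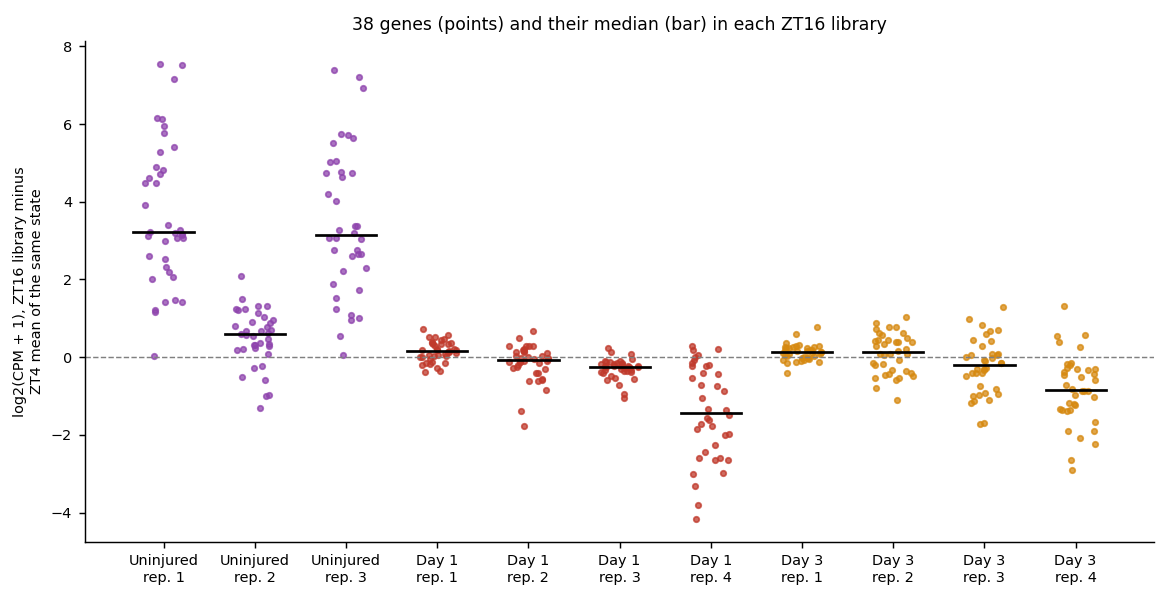
Difference of each ZT16 library from the mean of the ZT4 libraries of the same state, in log2(CPM + 1), with 1 point per gene and a bar at the median of the 38. The medians are 3.21 and 3.13 in uninjured replicates 1 and 3, 0.58 in uninjured replicate 2 and −1.43 in day 1 replicate 4, and the other injured libraries lie between −0.84 and 0.15.

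The AP-1 factors are the FOS, JUN and ATF/MAF proteins that pair on DNA, and all 9 were higher at ZT16 in the uninjured cells. Fos (ENSMUSG00000021250, chromosome 12, 85473890 to 85477273 on GRCm38) had 19968, 469.6 and 16117 CPM at ZT16, against 319.8, 539.9 and 195.8 CPM at ZT4. ZT16 replicate 2 lay inside the ZT4 range, so the groups overlap (log2 5.11 ± 1.01, edgeR adjusted p = 0.00228). Jun, on chromosome 4 from 95049034 to 95052222, had 11933, 881.5 and 10806 CPM at ZT16, against 380.3, 838.2 and 206.1 CPM at ZT4. Its groups did not overlap, by a narrow margin between ZT16 replicate 2 and ZT4 replicate 2 (4.05 ± 0.74, adjusted p = 0.0013). Junb had 10266, 624.3 and 8791.0 CPM at ZT16, against 338.4, 471.7 and 113.8 CPM at ZT4 (4.41 ± 0.81, adjusted p = 0.00127). Atf3, a stress-induced factor, had 385.2, 1.428 and 343.8 CPM at ZT16, against 0.5646, 0.99 and 1.763 CPM at ZT4. It was near the limit of detection in replicate 2 and all ZT4 libraries, and its fold was the largest of the 38 (7.84 ± 1.53, adjusted p = 0.002). Fosb (6.77 ± 1.31), Jund (2.46 ± 0.48), Fosl2 (2.42 ± 0.54), Fosl1 (2.08 ± 0.59) and Maff (1.85 ± 0.47) completed the group.

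Of the 7 EGR and NR4A factors and Csrnp1, which are zinc finger factors, orphan nuclear receptors and a nuclear protein induced by AXIN, 6 were higher and Nr4a3 did not pass (3.15 ± 1.10, edgeR adjusted p = 0.0577). Egr1 had 18381, 539.0 and 14943 CPM at ZT16, against 988.2, 1324.3 and 413.9 CPM at ZT4. Its replicate 2 lay below 2 of the 3 ZT4 libraries, while the other replicates exceeded all of them (3.63 ± 0.87, adjusted p = 0.00805). Egr2, on chromosome 10 from 67535475 to 67542188, had 868.0, 25.14 and 899.6 CPM at ZT16, against 12.99, 8.043 and 0.8012 CPM at ZT4, with no overlap (6.29 ± 1.11, adjusted p = 0.000974). Csrnp1 had 367.8, 7.998 and 240.4 CPM at ZT16, against 2.597, 3.836 and 7.531 CPM at ZT4, so replicate 2 stood just above the ZT4 range (5.51 ± 1.03, adjusted p = 0.00146).

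Of the 4 KLF factors, zinc finger regulators of growth and quiescence, Klf2, Klf4 and Klf6 were higher and Klf10 was not. Klf2 had 67.49, 6.855 and 68.98 CPM at ZT16, against 0.5646, 4.084 and 1.763 CPM at ZT4 (4.48 ± 0.72, edgeR adjusted p = 0.000424). Klf4 had 224.8, 19.0 and 230.4 CPM at ZT16, against 5.533, 4.95 and 15.38 CPM at ZT4 (4.24 ± 0.75, adjusted p = 0.000983). Both genes had all ZT16 libraries above all ZT4 libraries. Klf10, a target of TGF-beta signalling, had 183.7, 90.83 and 187.4 CPM at ZT16, against 200.4, 234.9 and 125.5 CPM at ZT4, and it was the only member with a negative fold change (−0.28 ± 0.20, adjusted p = 0.379). Replicates 1 and 3 lay within the ZT4 range and replicate 2 below it.

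Among the genes of mRNA decay, growth restraint and the IER family, 5 of 6 were higher. Btg2, an antiproliferative gene that recruits deadenylases to mRNA, had 7082.4, 371.2 and 6745.9 CPM at ZT16, against 216.7, 389.2 and 183.5 CPM at ZT4 (4.17 ± 0.83, edgeR adjusted p = 0.00241). Zfp36, which encodes the mRNA-destabilizing protein tristetraprolin, had 3988.8, 173.5 and 3050.7 CPM at ZT16, against 89.43, 192.7 and 46.95 CPM at ZT4 (4.45 ± 0.90, adjusted p = 0.00265). In both genes replicate 2 lay within the ZT4 range. Ier2 (2.54 ± 0.52), Ier3 (2.26 ± 0.59) and Btg1 (0.83 ± 0.25) also passed, and Ier5 did not (1.38 ± 0.52, adjusted p = 0.0801).

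The phosphatases and signalling inhibitors, which limit MAP kinase and cytokine signals, had 5 of 7 members higher. Socs3, the feedback inhibitor of JAK and STAT signalling, had 2016.6, 91.41 and 1971.6 CPM at ZT16, against 45.28, 39.85 and 26.28 CPM at ZT4 (5.19 ± 0.91, edgeR adjusted p = 0.000981). Replicate 2 was above all ZT4 libraries, but nearer to them than to its own group. Rhob, a small GTPase, had 98.44, 31.56 and 104.0 CPM at ZT16, against 22.02, 27.35 and 14.42 CPM at ZT4 (1.87 ± 0.32, adjusted p = 0.000408). Dusp1 (2.51 ± 0.56), Dusp5 (3.03 ± 0.66) and Trib1 (2.55 ± 0.50) passed, while Dusp2 (1.25 ± 0.52, adjusted p = 0.104) and the ERK phosphatase gene Dusp6 (0.41 ± 0.46, adjusted p = 0.596) did not.

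Of the 5 stress and growth arrest genes, 4 were higher and Gadd45a did not pass (1.12 ± 0.40, edgeR adjusted p = 0.0651). Ppp1r15a, which encodes the GADD34 subunit that restores translation after stress, had 2187.1, 358.9 and 2340.8 CPM at ZT16, against 170.7, 213.0 and 80.28 CPM at ZT4, with no overlap (3.39 ± 0.52, adjusted p = 0.0003). Arc, best known as a synaptic immediate early gene, had 8.167, 2.714 and 15.61 CPM at ZT16, against 1.468, 0.6187 and 0.0 CPM at ZT4 (3.52 ± 0.58, adjusted p = 0.000245). Gadd45b (2.77 ± 0.48) and Gadd45g (2.68 ± 0.54) passed as well. Over the whole set, some calls also ended when 1 uninjured library was left out. Btg1 and Nr4a2 did not pass without ZT16 replicate 1 or 3 or ZT4 replicate 1 or 2, Egr3 without ZT16 replicate 3 or ZT4 replicate 1 or 3, and Fosl1, Ier3 and Klf6 each without ZT16 replicate 1 or ZT4 replicate 3. Fosl1 further did not pass without ZT4 replicate 2, Ier3 without ZT4 replicate 1 and Maff without ZT16 replicate 1. Adjusted p in these fits ranged from 0.0507 to 0.22 in edgeR.

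**Figure D3:**
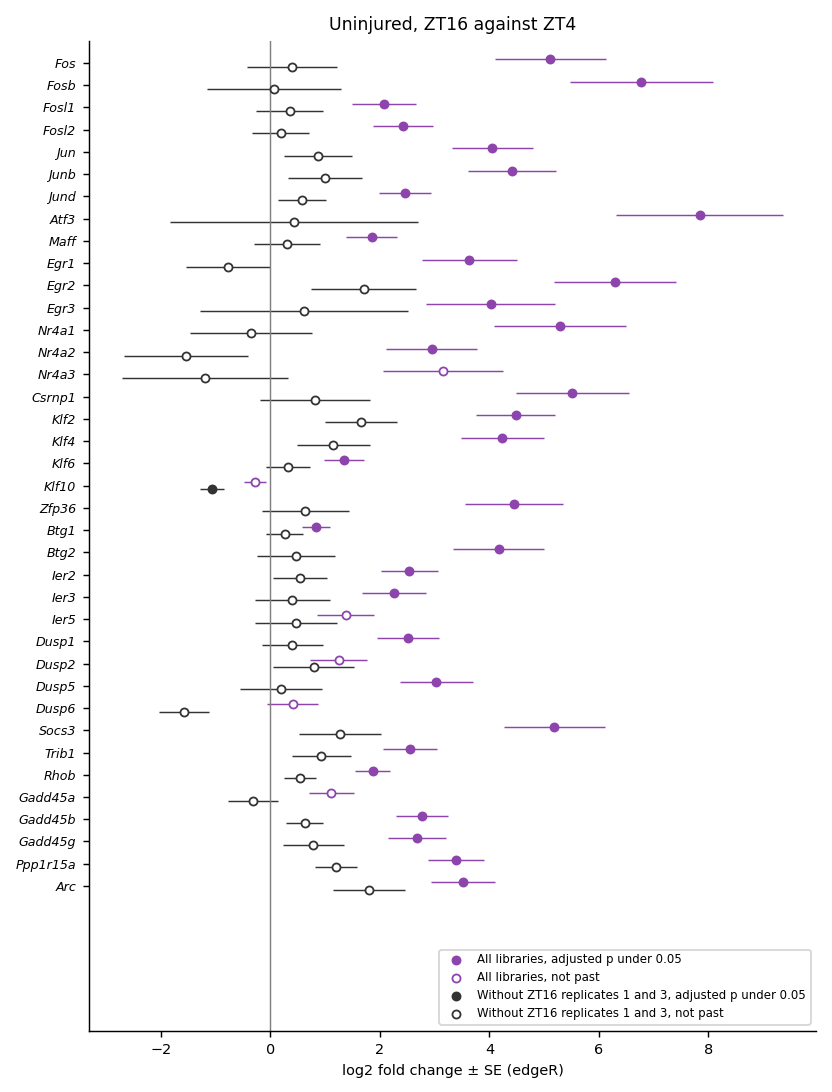
Log2 fold change ± SE of each gene in uninjured ZT16 against ZT4, with all libraries (purple) and without ZT16 replicates 1 and 3 (dark), filled where the edgeR adjusted p was under 0.05. With all libraries 32 genes are filled on the higher side, and without the 2 replicates only Klf10 is filled, on the lower side at −1.06.

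Beside the set, 3 lists of related genes were followed, also chosen with earlier results of these data known. Of 40 other primary response genes, 39 were tested, 25 were higher and none lower in uninjured ZT16 against ZT4, with a median log2 fold change of 1.5. Phlda1 had 125.7, 125.3 and 263.0 CPM at ZT16, against 23.37, 37.12 and 27.4 CPM at ZT4 (2.55 ± 0.28, edgeR adjusted p = 6.8e-06). Its replicates 1 and 2 were at nearly the same level, all ZT16 libraries were above all ZT4 libraries, and it passed without replicates 1 and 3 (2.07 ± 0.27, adjusted p = 0.000172). Tob1, an antiproliferative relative of Btg2 (2.83 ± 0.32, adjusted p = 1.48e-05), and Cebpb, a leucine zipper factor (3.80 ± 0.62, adjusted p = 0.000529), passed in that fit too, at 1.49 ± 0.25 (adjusted p = 0.00222) and 3.15 ± 0.67 (adjusted p = 0.0234). Cebpb had 320.1, 340.1 and 919.4 CPM at ZT16, against 35.01, 43.56 and 34.45 CPM at ZT4.

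Of 15 heat shock genes, 9 were higher and none lower, with a median of 1.23. Dnajb1, a co-chaperone of HSP70, had 1150.0, 160.2 and 1986.2 CPM at ZT16, against 78.03, 110.3 and 53.84 CPM at ZT4 (3.76 ± 0.59, edgeR adjusted p = 0.000385). It followed the same split of replicates as Fos, and without replicates 1 and 3 it did not pass (0.97 ± 0.33, adjusted p = 0.135). Of 21 upstream factors and kinases, among them Srf, Elk1, Creb1 and the MAP kinases, 1 was higher, 1 lower and 19 did not pass, with a median of 0.07. The higher gene was Rps6ka5, the kinase MSK1 that phosphorylates CREB and histone H3, at 55.45, 42.85 and 48.4 CPM at ZT16, against 20.1, 20.91 and 21.15 CPM at ZT4 (1.24 ± 0.27, adjusted p = 0.00251). All its ZT16 libraries were high, replicate 2 included, but with replicate 2 alone it did not pass (1.03 ± 0.39, adjusted p = 0.172). The lower gene was Map2k2 (−0.48 ± 0.11, adjusted p = 0.00307).

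Markers of other cells were set beside the uninjured result. The summed level of 14 macrophage and monocyte markers was 108.2, 38.99 and 37.19 CPM in ZT16 replicates 1, 2 and 3, against 18.18 to 42.94 CPM at ZT4, so it was higher in replicate 1 but not in replicate 3. Of the 14, Cd68 was higher by the test and 13 did not pass. The 7 neutrophil markers summed to at most 0.2839 CPM at ZT16 and at most 3.712 CPM at ZT4, with 6 of the 7 at 0 in all ZT16 libraries. Endothelial markers (7 genes) summed to 197.3, 140.4 and 145.8 CPM in ZT16 replicates 1, 2 and 3, against 104.6 to 116.8 CPM at ZT4. Fibro-adipogenic markers (8 genes) summed to 3387.5, 3141.1 and 3645.7 CPM at ZT16, against 2758.9 to 3778.9 CPM at ZT4. Smooth muscle and mural markers (7 genes) summed to 662.1, 434.5 and 385.3 CPM at ZT16, against 793.0 to 1213.9 CPM at ZT4, where Tagln (−1.65 ± 0.18) and Acta2 (−1.11 ± 0.21) were lower by the test. The other 5 did not pass, with positive fold changes for Pdgfrb (0.95), Rgs5 (0.74) and Myh11 (0.52) and negative ones for Cspg4 (−0.30) and Kcnj8 (−0.12). Myofiber markers (8 genes) summed to 1344.9, 1613.7 and 1781.0 CPM at ZT16, against 687.0 to 1145.5 CPM at ZT4, where Atp2a1 (1.37 ± 0.35) was higher by the test and the other 7 did not pass. Of the endothelial markers Tek passed (0.54 ± 0.19), and of the fibro-adipogenic markers none did (smallest edgeR adjusted p = 0.225, 0 of 8 at an unadjusted p under 0.05). T and NK cell markers (5 genes) summed to at most 0.1428 CPM at ZT16 and 1.114 CPM at ZT4. The part of these cells in the result was not tested.

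Day 1 after injury was compared with uninjured muscle at each time, and at ZT4 both groups are without the libraries that stood apart, although those libraries enter the spread that the fit estimates over all 22. Of the 38 members, 28 were higher at day 1 and none lower in edgeR, where 64.2% of all genes were called, 30.1% higher and 34.2% lower. The median log2 fold change was 2.56 over the members and −0.12 over all genes tested. For 32 members the day 1 ZT4 range lay above the uninjured ZT4 range with no overlap, against 29.2% of all genes, and for none below it (32.2% of all genes). Limma voom called 18 members higher, a count given without the share of all genes in that fit.

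Among AP-1 factors 7 of 9 were higher. Fosl1, which encodes FRA-1, had 311.5, 281.4, 295.1 and 291.1 CPM at day 1, against 2.146, 1.237 and 0.3205 CPM in uninjured muscle (both at ZT4). The groups were far apart and the day 1 libraries close to each other (7.78 ± 0.49, edgeR adjusted p = 2.02e-10). Fosl1 was near the limit of detection in uninjured ZT4, so the size of its fold is uncertain. Fos had 3691.7, 3461.1, 4366.5 and 3118.4 CPM at day 1, against 319.8, 539.9 and 195.8 CPM in uninjured muscle (3.38 ± 0.91, adjusted p = 0.00392). Atf3 (7.70 ± 1.5), Fosb (5.02 ± 1.21), Junb (2.49 ± 0.72), Jun (2.03 ± 0.66) and Fosl2 (1.64 ± 0.51) passed as well, and Jund (0.89 ± 0.44, adjusted p = 0.0843) and Maff (0.17 ± 0.45, adjusted p = 0.759) did not. Of the EGR and NR4A factors and Csrnp1, 5 of 7 were higher, from Egr3 at 3.26 ± 1.17 to Csrnp1 at 5.54 ± 1.01, while Egr1 (1.45 ± 0.77, adjusted p = 0.108) and Nr4a3 (2.25 ± 1.04, adjusted p = 0.0692) did not pass. The fitted fold of Egr3 depends on the prior count, since its ZT4 counts were near 0. Klf2 (4.25 ± 0.71), Klf4 (2.63 ± 0.71) and Klf6 (1.81 ± 0.35) were the 3 KLF factors that rose.

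Among the phosphatases and signalling inhibitors 5 of 7 were higher. Dusp5, a nuclear phosphatase specific for ERK, had 160.8, 151.5, 132.0 and 155.1 CPM at day 1, against 1.694, 0.3712 and 2.564 CPM in uninjured muscle (6.65 ± 0.60, edgeR adjusted p = 3.05e-08). Dusp2, another nuclear phosphatase, had 12, 18.78, 18.66 and 15.3 CPM at day 1, against 1.016, 2.227 and 0.0 CPM in uninjured muscle (3.82 ± 0.48, adjusted p = 2.24e-07). Both were near the limit of detection in uninjured cells at ZT4, and their groups did not overlap. Socs3 (4.34 ± 0.86), Trib1 (2.24 ± 0.48) and Rhob (0.96 ± 0.30) also rose. Dusp1 (0.77 ± 0.50, adjusted p = 0.192) and Dusp6 (0.91 ± 0.44, adjusted p = 0.0793) did not pass.

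Of the mRNA decay, growth restraint and IER genes 4 of 6 rose, which were Ier5 (3.49 ± 0.51), Ier3 (3.14 ± 0.58), Zfp36 (3.10 ± 0.83) and Btg2 (1.81 ± 0.73). Of the stress genes 4 of 5 rose, which were Arc (4.22 ± 0.55), Gadd45b (3.11 ± 0.47), Gadd45g (2.38 ± 0.51) and Ppp1r15a (1.3 ± 0.46). The weaker calls turned on single libraries. Btg2 did not pass without day 1 ZT4 replicate 1, 2 or 3 or uninjured ZT4 replicate 1 or 3, with edgeR adjusted p from 0.054 to 0.116. Without uninjured ZT4 replicate 3, the lowest of the 3 for 23 members, Jun (0.0565), Rhob (0.0532), Egr3 (0.0588) and Ppp1r15a (0.0898) did not pass either, by adjusted p. Egr3 further missed without uninjured ZT4 replicate 1 (0.0679), and Fosl2 without replicate 2 (0.0528).

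**Figure D4:**
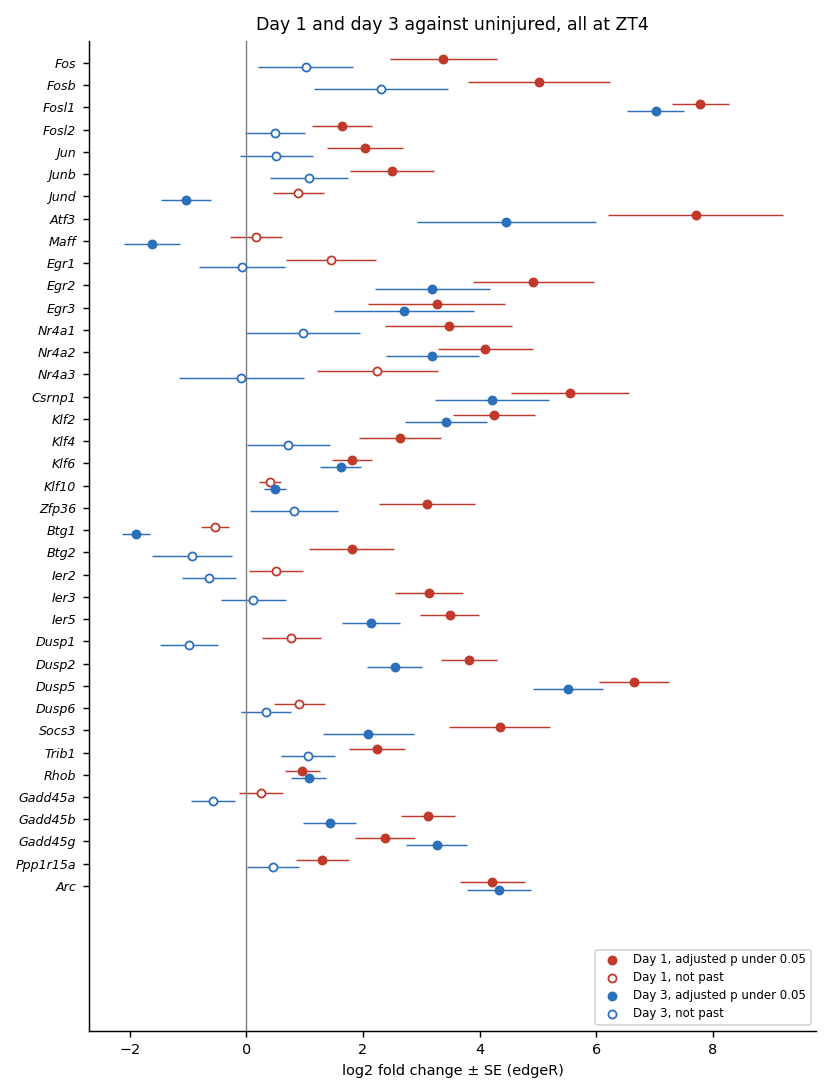
Log2 fold change ± SE of each gene at day 1 (red) and day 3 (blue) against uninjured muscle, all at ZT4, filled where the edgeR adjusted p was under 0.05. Fosl1 and Dusp5 lie far to the right on both days (7.78 and 6.65 at day 1, 7.02 and 5.51 at day 3), while Fos, Jun and Egr1 are nearer 0 at day 3.

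Markers of several other cell types moved with the injury. The 14 macrophage and monocyte markers summed to 2634.0 to 4564.5 CPM at day 1 ZT4, against 18.18 to 42.94 CPM in uninjured ZT4, and all 14 were higher by the test. The 7 neutrophil markers summed to 82.16 to 308.2 CPM at day 1 ZT4, against at most 3.712 CPM, with Ly6g at 0 in both groups. The muscle stem cell markers summed to 2885.1 to 3048.3 CPM at day 1 ZT4, against 4311.2 to 4653.3 CPM. Fibro-adipogenic markers summed to 639.5 to 831.6 CPM at day 1 ZT4, against 2758.9 to 3778.9 CPM, with 3 of 8 lower and 2 higher by the test. Smooth muscle and mural markers summed to 334.0 to 394.2 CPM, against 793.0 to 1213.9 CPM, with 4 of 7 lower. Endothelial markers summed to 40.08 to 58.51 CPM, against 104.6 to 116.8 CPM, with 1 of 7 lower, Tek (−2.67 ± 0.19). Emcn (2.06), Esam (0.78), Kdr (0.68), Pecam1 (0.49) and Tie1 (0.38) had positive fold changes and Cdh5 (−0.77) a negative one, and none of these passed. The part of these cells in the rise of the members was not tested. Of the other primary response genes 25 of 39 were higher and 5 lower, led by Plaur, the urokinase receptor (5.67 ± 0.41, edgeR adjusted p = 8.5e-10), and including the Notch target Hes1 among those lower (−2.53 ± 0.21, adjusted p = 1.29e-09). Of the heat shock genes 10 of 15 were higher, led by the mitochondrial chaperones Hspd1 (2.36 ± 0.12) and Hspe1 (2.11 ± 0.12), and Dnajb1 rose by 1.44 ± 0.52 (adjusted p = 0.0229). Of the upstream factors and kinases 10 of 21 were higher and 6 lower, with Srf at 1.46 ± 0.30 and Rps6ka5 at −1.05 ± 0.26.

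At ZT16 the same comparison set day 1 against an uninjured group that held the 2 high libraries. There 6 members were higher and 18 lower at day 1 (65.4% of all genes were called, 30.8% higher and 34.6% lower), with a median of −1.27. The higher ones were Fosl1 (5.58 ± 0.41), Dusp5 (3.34 ± 0.46), Dusp2 (2.23 ± 0.43), Ier5 (1.99 ± 0.46), Arc (0.99 ± 0.41) and Klf10 (0.73 ± 0.19). Fosl1 had 268.5, 244.3, 262.4 and 306.3 CPM at day 1 ZT16, against 11.89, 1.714 and 3.264 CPM in uninjured ZT16. Dusp5 had 134.7, 112.1, 115.7 and 134.9 CPM at day 1 ZT16, against 21.06, 1.714 and 13.91 CPM. For both genes every day 1 library was above every uninjured library at either time. Dusp2 had 12.89, 14.42, 10.28 and 13.57 CPM at day 1 ZT16, against 3.152, 2.0 and 2.981 CPM in uninjured ZT16, again with no overlap.

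The lower members were led by Btg1 (−1.44 ± 0.24, edgeR adjusted p = 2.59e-05), Ppp1r15a (−2.20 ± 0.44, adjusted p = 0.000342) and Dusp1 (−2.18 ± 0.50, adjusted p = 0.00105). Fos (−2.13 ± 0.80, adjusted p = 0.0284) and Egr1 (−2.25 ± 0.74, adjusted p = 0.0139) were among them. Btg1 had 387.7, 341.2, 259.6 and 181.3 CPM at day 1 ZT16, against 1000, 542.6 and 834.4 CPM in uninjured ZT16, and its groups did not overlap. Ppp1r15a had 407.3, 386.1, 419.7 and 208.5 CPM at day 1 ZT16, against 2187.1, 358.9 and 2340.8 CPM. Dusp1 had 963.1, 900.8, 743.2 and 263.8 CPM at day 1 ZT16, against 4426.1, 763.0 and 4565.7 CPM. In both of these genes uninjured replicate 2 lay within the day 1 range. Fos had 3829.6, 3324.1, 3534.5 and 452.4 CPM at day 1 ZT16, against 19968, 469.6 and 16117 CPM in uninjured ZT16. Without uninjured ZT16 replicates 1 and 3, that group had 1 library, and Fos stood at 2.71 instead. Ppp1r15a, Dusp1, Jun and Egr1 turned positive too, while Btg1 stayed negative. The same genes were positive without day 1 ZT16 replicate 4 as well, which was chosen after its values were seen, and Btg1 again stayed negative. Leaving out 1 library moved the count of lower members to 10 (without uninjured ZT16 replicate 1) or 11 (without uninjured ZT16 replicate 3 or day 1 ZT16 replicate 4), and Fos then did not pass (adjusted p = 0.138, 0.082 and 0.0601). Egr1 did not pass without uninjured ZT16 replicate 1 (adjusted p = 0.0807). At day 1 ZT16 the macrophage and monocyte markers summed to 1423.3 to 2697.0 CPM, against 37.19 to 108.2 CPM in uninjured ZT16 (14 of 14 higher). Fibro-adipogenic markers summed to 524.9 to 739.5 CPM at day 1 ZT16, against 3141.1 to 3645.7 CPM (3 of 8 lower, 1 higher), and myofiber markers to 152.4 to 545.7 CPM, against 1344.9 to 1781.0 CPM (7 of 8 lower). Their part was not tested.

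**Figure D5:**
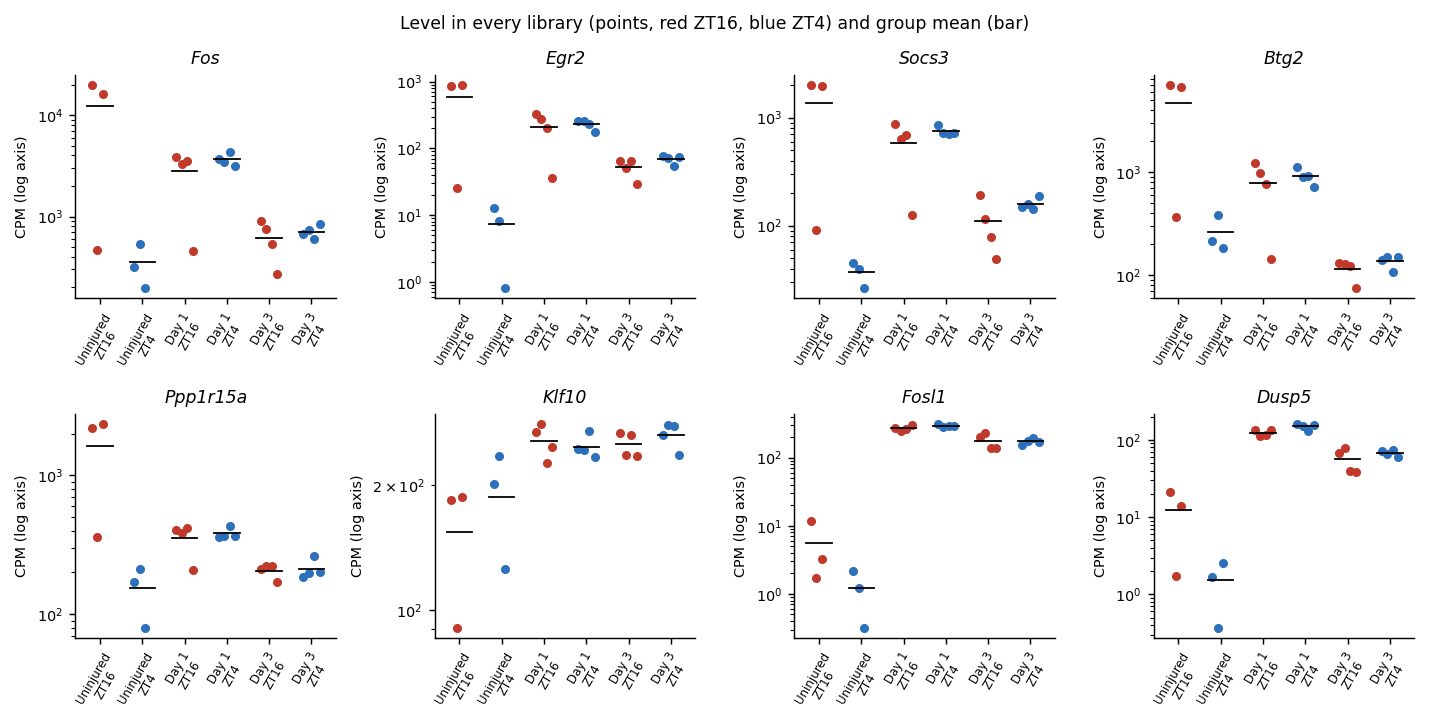
Level in CPM (log axis) of 8 genes in every library (points, ZT16 red and ZT4 blue), with a bar at the group mean. Fosl1 and Dusp5 are low in each uninjured library and high in each injured library, Fos, Egr2, Socs3, Btg2 and Ppp1r15a split the uninjured ZT16 group, and Klf10 is nearly level across the injured groups.

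By day 3 fewer members were above uninjured muscle. At ZT4, 17 were higher and 3 lower (67.0% of all genes were called, 33.5% in each direction), with a median of 1.04. The day 3 range lay above the uninjured range with no overlap for 22 members (32.8% of all genes) and below it for 6 (31.3%). Fosl1 had 154.1, 175.8, 193.6 and 170.6 CPM at day 3 ZT4 (7.02 ± 0.48, edgeR adjusted p = 5e-10) and Dusp5 72.35, 65.08, 74.99 and 60.87 CPM (5.51 ± 0.60, adjusted p = 2.64e-07). Arc had 14.6, 12.93, 20.2 and 14.56 CPM at day 3 ZT4, against 1.468, 0.6187 and 0.0 CPM in uninjured ZT4 (4.33 ± 0.55, adjusted p = 4.02e-07). In these 3 genes the groups did not overlap. Gadd45g (3.26 ± 0.53), Csrnp1 (4.22 ± 0.98), Klf2 (3.42 ± 0.70), Egr2 (3.19 ± 0.99) and Socs3 (2.09 ± 0.78) were also higher, whereas Fos (1.01 ± 0.82, adjusted p = 0.287), Jun (0.51 ± 0.62, adjusted p = 0.482) and Egr1 (−0.08 ± 0.74, adjusted p = 0.934) did not pass. These calls use a spread estimated over all 22 libraries. In a fit of the groups compared alone, Fos had nearly the same fold with a smaller error and passed (1.04 ± 0.29, adjusted p = 0.0106), while Jun (adjusted p = 0.23) and Egr1 (adjusted p = 0.9) did not.

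The lower members at day 3 ZT4 were Btg1, Maff and Jund. Btg1 had 117.1, 128.1, 118.9 and 113.0 CPM at day 3, against 329.7, 427.4 and 577.2 CPM in uninjured muscle (−1.90 ± 0.24, edgeR adjusted p = 9.54e-07). Maff, a small MAF protein, had 1.412, 1.669, 1.04 and 1.443 CPM at day 3, against 5.759, 3.341 and 3.846 CPM in uninjured muscle (−1.62 ± 0.48, adjusted p = 0.00459). Jund had 83.65, 87.89, 84.64 and 86.72 CPM at day 3, against 138.0, 210.6 and 178.5 CPM in uninjured muscle (−1.03 ± 0.43, adjusted p = 0.0421). None of the 3 overlapped between the groups. Jund did not pass without any 1 of the day 3 ZT4 or uninjured ZT4 libraries, nor without day 1 ZT4 replicate 2 or 4 (adjusted p = 0.0556 to 0.142), and Atf3, at 4.46 ± 1.54 and adjusted p = 0.0173, did not pass without uninjured ZT4 replicate 1 (0.057) or 2 (0.0521).

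At ZT16, 6 members were higher at day 3 and 25 lower (68.7% of all genes were called, 33.8% higher and 34.9% lower), with a median of −2.54. Fosl1 (4.96 ± 0.41), Dusp5 (2.20 ± 0.45), Dusp2 (1.72 ± 0.43), Gadd45g (1.44 ± 0.47), Arc (1.25 ± 0.41) and Klf10 (0.70 ± 0.19) were higher. Btg1 (−2.65 ± 0.24, edgeR adjusted p = 9.73e-09), Maff (−3.62 ± 0.47, adjusted p = 2.86e-07) and Dusp1 (−3.73 ± 0.53, adjusted p = 7.58e-06) led the lower side. Btg1 had 145.5, 144.7, 124.0 and 88.43 CPM at day 3 ZT16 and Maff 1.95, 1.654, 0.7997 and 0.4527 CPM, against 25.22, 5.427 and 16.32 CPM for Maff in uninjured ZT16. Dusp1 had 342.0, 297.6, 214.8 and 126.5 CPM at day 3 ZT16. All 3 genes were below each uninjured ZT16 library, replicate 2 included. Without uninjured ZT16 replicates 1 and 3, that group had 1 library. Fos, Egr1 and Atf3 then had positive fold changes, while Btg1, Maff, Dusp1 and Jun stayed negative. Macrophage markers summed to 293.5 to 1041.6 CPM at day 3 ZT16 and 545.6 to 834.0 CPM at day 3 ZT4, above both uninjured groups, and their part was not tested. Each injured group was compared with the same uninjured libraries at its time, so the day 1 and day 3 contrasts share them.

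Day 3 was compared with day 1 with both times averaged. Here 28 members were lower at day 3 and 1 was higher, where 55.4% of all genes were called, 28.7% lower and 26.7% higher, and the median was −1.28 over the members and −0.02 over all genes. All 9 AP-1 factors and all 6 mRNA decay, growth restraint and IER genes were lower. Btg1 (−1.29 ± 0.16, edgeR adjusted p = 1.09e-06), Ier3 (−2.70 ± 0.36, adjusted p = 6.67e-06) and Maff (−1.87 ± 0.32, adjusted p = 2.56e-05) had the smallest p. Ier3, an inhibitor of cell death, had 32.54, 51.51, 28.63 and 14.49 CPM at day 3 ZT16 and 26.37, 26.42, 24.65 and 32.4 CPM at day 3 ZT4, against 198.4, 200.8, 177.9 and 86.54 CPM at day 1 ZT16 and 201.6, 197.9, 299.7 and 193.7 CPM at day 1 ZT4. Each day 3 library was below each day 1 library. Fosl1 fell by less, at −0.69 ± 0.20 (adjusted p = 0.00623), and Dusp5 at −1.14 ± 0.26 (adjusted p = 0.00107).

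The member that was higher at day 3 was Gadd45g, a growth arrest and stress sensor gene (chromosome 13, 51846678 to 51848468). It had 136.5, 202.3, 355.7 and 361.4 CPM at day 3 ZT16 and 163.8, 169.4, 134.1 and 116.9 CPM at day 3 ZT4, against 130.2, 110.0, 66.4 and 94.99 CPM at day 1 ZT16 and 95.47, 89.32, 68.58 and 62.72 CPM at day 1 ZT4 (1.14 ± 0.30, edgeR adjusted p = 0.00362). At ZT4 the days did not overlap, and at ZT16 they did not either. Klf10 (0.04 ± 0.12), Arc (0.19 ± 0.26) and Rhob (0.27 ± 0.19) were the others with a positive fold change, and none of them passed. Macrophage and monocyte markers were lower at day 3 as well, 11 of 14 by the test, with sums of 293.5 to 1041.6 CPM over all day 3 libraries against 1423.3 to 4564.5 CPM over all day 1 libraries. Neutrophil markers were lower in 5 of the 5 tested. Whether they account for any of the fall was not tested.

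Injury at ZT16 was compared with injury at ZT4 within each day. At day 1 no member passed in edgeR and 0.0% of all genes did, with 0 members at an unadjusted p under 0.05 (920 of all genes). This fit estimates the spread over all 22 libraries. In a fit of the day 1 groups alone, 2 members were under 0.05 unadjusted. They were Dusp5 (−0.27 ± 0.09, edgeR unadjusted p = 0.0127, adjusted p = 0.418) and Nr4a2 (−1.18 ± 0.39, unadjusted p = 0.0183, adjusted p = 0.459). No member was called by DESeq2 or limma voom, which called 27 and 46 genes. With no filter on low counts, however, edgeR called 9 members, all lower at ZT16 (Fos, Fosb, Atf3, Nr4a1, Nr4a2, Nr4a3, Csrnp1, Zfp36 and Dusp1), and 270 of 29234 genes, so the absence of calls depends on the filter. The members' median was −0.27, against 0.00653 over all genes tested, and 31 of 38 had negative fold changes. The smallest p belonged to Nr4a2, an orphan nuclear receptor, with 48.24, 23.55, 30.34 and 10.94 CPM at ZT16, against 65.06, 52.86, 70.91 and 67.55 CPM at ZT4 (−1.18 ± 0.60, edgeR adjusted p = 0.865). Its groups did not overlap, but the ZT16 libraries spread over 4-fold. Fosl2 came next, with 56.89, 36.04, 46.21 and 15.65 CPM at ZT16, against 59.33, 55.07, 53.34 and 57.07 CPM at ZT4 (−0.54 ± 0.45, adjusted p = 0.979). Nr4a3 had 33.83, 8.752, 21.58 and 2.354 CPM at ZT16, against 35.6, 24.3, 31.41 and 41.35 CPM at ZT4 (−1.0 ± 0.87, adjusted p = 0.98). In both, the ZT16 libraries spread widely and replicate 4 was the lowest.

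The negative median rested mostly on 1 library. The members' median difference from the ZT4 mean was −1.43 in day 1 ZT16 replicate 4, against −0.26 in replicate 3, −0.07 in replicate 2 and 0.15 in replicate 1. Day 1 ZT16 replicate 4 was at least 2-fold below the ZT4 mean for 22 members, where 3.69% of all genes were, and was the lowest of its group for 27 members, where 29.9% of all genes were. Fos stood at 452.4 CPM there, against 3118.4 to 4366.5 CPM at ZT4, and Nr4a1, a nuclear receptor, at 49.43 CPM against 835.7 to 1052.3 CPM. Without this library the members' median was −0.07. The 22 genes were all among the 35 that were at least 2-fold higher in both uninjured ZT16 replicates 1 and 3 (62.9% of the 35 and 100% of the 22). As the list of 35 holds all members but Btg1, Dusp6 and Klf10, nearly any choice of members would lie mostly within it. The other 13 of the 35 were Arc, Dusp2, Dusp5, Egr3, Fosl1, Gadd45b, Gadd45g, Ier2, Ier5, Klf2, Maff, Ppp1r15a and Rhob. Fosl1 stood at 306.3 CPM in replicate 4, the highest of its group, and Dusp5 at 134.9 CPM. In that library macrophage markers summed to 1423.3 CPM, against 1505.6 to 2697.0 CPM in the other day 1 ZT16 libraries, endothelial markers to 100.7 CPM, against 37.17 to 43.5 CPM, and muscle stem cell markers to 2408.2 CPM, against 2922.2 to 3176.5 CPM. Their part was not tested.

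At day 3 no member passed in edgeR either, and 0.0% of all genes did, with 0 members and 1003 genes at an unadjusted p under 0.05. This fit, too, estimates the spread over all 22 libraries. In edgeR's fit of the day 3 groups alone, Gadd45b, Rhob, Gadd45a, Jund and Arc, higher at ZT16, were under 0.05 unadjusted. So were Nr4a2 and Fosl2, which were lower. Gadd45b came first of the members there (0.71 ± 0.16, edgeR adjusted p = 0.141), and none passed. DESeq2 called 4 genes and limma voom 0, with no member among them. With no filter on low counts edgeR called 11 members, 3 higher and 8 lower at ZT16, and 127 of 29234 genes. In the filtered fit of all 22 libraries Klf6 came first of the members. It had 370.5, 276.8, 200.6 and 146.8 CPM at ZT16, against 387.3, 358.9, 385.1 and 420.5 CPM at ZT4 (−0.64 ± 0.31, edgeR adjusted p = 0.756). Gadd45g (0.85 ± 0.41, adjusted p = 0.774) followed, and then Nr4a2, with 25.05, 15.24, 9.756 and 6.338 CPM at ZT16, against 33.43, 32.13, 44.1 and 27.03 CPM at ZT4 (−1.25 ± 0.62, adjusted p = 0.775). Nr4a2 did not overlap between the times on either day. ZT16 replicate 4 was the lowest of its group for 32 members, against 23.4% of all genes, and at least 2-fold below the ZT4 mean for 15, against 2.09% of all genes. All 15 were also among the 22 of the day 1 library. Macrophage and monocyte markers summed to 293.5 CPM in replicate 4, against 1041.6, 732.8 and 407.4 CPM in the other day 3 ZT16 libraries, and their part was not tested. Gadd45g went the other way in it, at 361.4 CPM the highest of all 22 libraries.

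The difference between ZT16 and ZT4 in injured muscle was then tested against that in uninjured muscle. The labels tie ZT to the injury, which uninjured muscle lacks, so the 2 differences need not concern the same kind of hour. At day 1, 29 members had a lower time effect than in uninjured muscle and none a higher one (edgeR's interaction contrast, 7.46% of all genes called, 3.93% higher and 3.53% lower), with a median of −3.26. At day 3 the counts were 28 lower and 0 higher (12.8% of all genes, 6.8% higher and 5.97% lower), with a median of −3.20. The counts were smaller in other fits, with 7 lower at day 1 and 10 at day 3 in limma voom, and 9 at day 1 in a fit of the groups compared alone. The shares of all genes in those fits are not given. Klf2 (−4.90 ± 0.87, edgeR adjusted p = 0.00371), Ppp1r15a (−3.50 ± 0.64, adjusted p = 0.00484) and Klf4 (−4.77 ± 0.93, adjusted p = 0.00666) had the smallest p at day 1. At day 3 these were Ppp1r15a (−3.44 ± 0.64, adjusted p = 0.00231), Socs3 (−5.72 ± 1.10, adjusted p = 0.00282) and Klf2 (−4.48 ± 0.88, adjusted p = 0.00286). These differences rest on the uninjured ZT16 replicates 1 and 3. Without both of them no member was lower on either day and Klf10 alone was higher, at 1.10 (adjusted p = 0.0314) on day 1 and 0.99 (adjusted p = 0.0336) on day 3. Without uninjured ZT16 replicate 1 alone, 18 were lower at day 1. Egr1 at day 1 (−3.70 ± 1.08, adjusted p = 0.0462) did not pass when any 1 library was left out other than uninjured ZT16 replicate 2, with adjusted p up to 0.126. At day 3 (−3.96 ± 1.08, adjusted p = 0.0232) it did not pass without uninjured ZT16 replicate 1 (0.0723) or 3 (0.052) or uninjured ZT4 replicate 3 (0.0587).

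Taking all 22 libraries, the members fell into patterns that can be stated as counts. For 25 members the 2 highest libraries of all were uninjured ZT16 replicates 1 and 3, a pattern that was not counted over all genes. The other 13 were Arc, Dusp2, Dusp5, Dusp6, Egr3, Fosl1, Gadd45b, Gadd45g, Ier3, Ier5, Klf6, Klf10 and Nr4a2. Fosl1, Dusp5 and Dusp2 were higher in every injured library than in every uninjured library, whichever the time. Ier5 missed that by a narrow margin, with 24.3 CPM in day 3 ZT16 replicate 4 against 24.84 CPM in uninjured ZT16 replicate 3. Klf10 lay between 225.1 and 279.9 CPM in the injured libraries.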

How the data were processed

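RNA of sorted ZsGreen+ cells, extracted after fixation with a kit for fixed tissue and amplified with SMART-seq v4, was sequenced in 22 libraries. The deposited files give estimated counts (expected counts) and TPM per transcript, as the authors computed them. Per the submitters' processing notes, the tools included Trimmomatic 0.33, STAR 2.5.2 and RSEM 1.3.3 with mm10; the annotation release is not given in the sources used here. Expected counts were summed per gene (43430 genes, 103732 transcripts), mapped to symbols (42462 genes) and rounded. In edgeR 4.0.16 (R 4.3.3), genes with low counts were removed (minimum count 10, minimum total 15; 28346 left out, 15084 tested), libraries were scaled by TMM (factors 0.942 to 1.094), and 6 group means were fitted over all 22 libraries with the robust quasi-likelihood test and Benjamini-Hochberg adjustment over all genes. A call is an adjusted p under 0.05. The ± after a fold change is an approximate SE, the absolute fold change divided by the square root of the test's F statistic. DESeq2 1.42.0 and limma 3.58.1 served as alternatives, and the fits were tested on simulated data. TPM was used to compare genes. Motifs were searched with Python 3.11.15. The members and lists were chosen with earlier results of these data known. Values per library are given for the 2 smallest p of each role group in uninjured muscle, for Fos, Jun, Egr1 and Atf3 there, and for the 3 smallest p in each direction elsewhere; up to 4 genes of each other list are named. Genes given beyond that rule were chosen after their values were seen.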

Additional observations from a re-analysis of the deposited data

Results flagged for a closer look

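In 6 of 152 gene and group combinations of 4 libraries (3.95%), 1 library stood apart from the other 3 by Dixon's criterion (critical value 0.829), where chance gives about 1 in 20. At day 1 ZT16 the lowest library stood apart for Fos (452.4 CPM) and Ppp1r15a (208.5 CPM). At day 1 ZT4 the highest stood apart for Ier3 (299.7 CPM), Socs3 (860.5 CPM) and Ppp1r15a (435.4 CPM), and at day 3 ZT16 the lowest for Btg2 (75.15 CPM).

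The difference between ZT16 and ZT4 was lower at day 1 than in uninjured muscle by edgeR's interaction contrast for Atf3 (−8.42), Fos (−5.51), Klf2 (−4.90), Klf4 (−4.77), Jun (−4.17), Egr1 (−3.70) and Ppp1r15a (−3.50), on the log2 scale. At day 3 it was lower for Atf3 (−7.91), Socs3 (−5.72), Fos (−5.32), Klf2 (−4.48), Jun (−4.19), Egr1 (−3.96) and Ppp1r15a (−3.44). Without uninjured ZT16 replicates 1 and 3 none of these passed.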

How the results depend on the processing

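Of 158 named values, 156 kept direction and side of the threshold with DESeq2 size factors, 151 with DESeq2, 140 with no filter on low counts, 120 with limma voom and 103 with only the groups compared, where none of the others changed direction. Counts of members moved as follows, given without the shares of all genes in each fit. With limma voom, 17 were higher in uninjured ZT16, 18 at day 1 ZT4 and 9 at day 3 ZT4, and 7 and 10 had a lower time effect at day 1 and day 3. With only the groups compared, 0 were higher in uninjured ZT16, 1 lower at day 1 ZT4, 4 lower at day 1 ZT16, 6 lower at day 3 ZT4, 2 higher at day 3 against day 1, and 9 had a lower time effect at day 1. With no filter, 9 were lower at ZT16 on day 1, 3 higher and 8 lower at ZT16 on day 3, 1 lower at day 1 ZT4, 27 higher and 7 lower at day 3 ZT4, and 2 higher at day 3 against day 1. The cause was not tested.

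Without uninjured ZT16 replicates 1 and 3, 0 members were higher and 1 lower in uninjured ZT16, 21 higher and 0 lower at day 1 ZT16, 14 higher and 4 lower at day 3 ZT16, and 1 had a higher and 0 a lower time effect on each day. Reversed log2 values were −0.35 for Nr4a1, −0.77 for Egr1, −1.54 for Nr4a2, −1.19 for Nr4a3, −0.32 for Gadd45a, −1.58 for Dusp6, −0.71 for Srf and 0.056 for Pax7 in uninjured ZT16. At day 1 ZT16 they were 0.13 for Ppp1r15a, 0.053 for Dusp1, 2.71 for Fos, 1.16 for Jun and 2.28 for Egr1, at day 3 ZT16 0.47 for Fos, 0.43 for Egr1 and 4.03 for Atf3, and for the time effect of Egr1 0.71 at day 1 and 0.44 at day 3. A further setting, chosen after seeing the data, left out day 1 ZT16 replicate 4 as well. Reversed values there were 0.32 for Ppp1r15a, 0.33 for Dusp1, 3.07 for Fos, 1.45 for Jun and 2.60 for Egr1 at day 1 ZT16, and 1.02 for the time effect of Egr1.

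Leaving out 1 library gave 26 to 35 members higher in uninjured ZT16, 24 to 33 higher and 0 to 1 lower at day 1 ZT4, 5 to 6 higher and 10 to 23 lower at day 1 ZT16, 15 to 20 higher and 2 to 4 lower at day 3 ZT4, 6 to 7 higher and 22 to 29 lower at day 3 ZT16, 1 to 2 higher and 27 to 32 lower at day 3 against day 1, and 18 to 34 and 20 to 32 with a lower time effect at day 1 and day 3. It reversed Dusp6 in uninjured ZT16 (−0.31 to 0.84) and Maff at day 1 ZT4 (−0.026 to 0.53). The ZT16 and ZT4 libraries of a state with the same number did not deviate together over all genes (correlations −0.098 to 0.09). This does not exclude a pairing or a batch, which no label gives. With a replicate block, 32 members were higher in uninjured ZT16, 29 at day 1 ZT4 and 18 at day 3 ZT4. At ZT16, 6 were higher and 13 lower at day 1, and 6 higher and 24 lower at day 3. In that fit 1 was higher and 28 lower at day 3 against day 1, and 25 had a lower time effect on each day.

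Groups of 3 or 4 libraries and the split of uninjured ZT16 limit each comparison with that group. Counts near 0 limit Egr3, Arc, Dusp2, Atf3, Fosl1, Dusp5 and Klf2 in uninjured ZT4.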

Other observations

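The members were short genes. Their median span was 4710.5 bases, against 20613.0 bases for 14957 tested genes with annotation, and 20 of 38 (52.6%) had at most 3 exons, against 23.8%. Jun, Junb, Jund, Ier2, Ier5 and Rhob had a single exon. In 24 members a single transcript held all or nearly all of the counts, among them Klf4 and Socs3, which had 3 transcripts each. Nr4a2 was spread over 6 transcripts, of which the main one held 49.5% of its counts. Protein-coding transcripts held 96.434% to 99.136% of the members' counts in each library.

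Tob1 had 327.3, 96.55 and 299.3 CPM in uninjured ZT16, against 35.23, 34.03 and 32.53 CPM in uninjured ZT4, so that replicate 2 stood above the ZT4 libraries as well as below the other replicates.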
